A study of Homo sapiens with 36 samples.

Results

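The genes described here are CHD3, CHD4, CHD5, MBD2 and MBD3, which encode the 5 NuRD subunits that the siRNAs of the study are named for. Every deposited TET1 peak within 20 kb of 1 of these gene bodies was taken, with the bodies on hg19 set at chromosome 17, 7.788 to 7.816 Mb for CHD3, chromosome 12, 6.679 to 6.717 Mb for CHD4, chromosome 1, 6.162 to 6.240 Mb for CHD5, chromosome 18, 51.680 to 51.751 Mb for MBD2 and chromosome 19, 1.577 to 1.593 Mb for MBD3. The rule found 27 of the 62066 deposited peaks: 12 of 28450 in the siNC list, 15 of 32749 in the siCHD5 list, and 0 in the lists of siCHD3 (140 peaks), siCHD4 (110), siMBD2 (358) and siMBD3 (259). Within the deposited lists the rule took peaks by position alone and not by their enrichment. The genes themselves were chosen with earlier results of these data known.

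NuRD is a nucleosome remodelling and histone deacetylase complex. CHD3, CHD4 and CHD5 are alternative ATPases of the complex that move nucleosomes, and CHD5 is known mainly from neurons and testis. MBD2 and MBD3 are alternative methyl-CpG-binding domain subunits: MBD2 binds methylated CpG, whereas mammalian MBD3 has little affinity for it. TET1 is a dioxygenase that oxidises 5-methylcytosine, and its CXXC domain binds CpG-rich DNA.

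All groups were HEK293T cells, a human embryonic kidney line that carries the SV40 large T antigen, and all were transfected with an siRNA. The siRNAs were siNC, taken as the control because the others are named for genes, and siCHD3, siCHD4, siCHD5, siMBD2 and siMBD3. Each group had 3 TET1 pull-down and 3 input libraries and a single peak list whose name carries all 3 replicates, so the peaks were read as calls on merged libraries. Spread among replicates is therefore unknown, every comparison is between lists, and none carries a p-value for the siRNA. Whether each siRNA lowered its target was not analysed here, nor was expression of the 5 genes.

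None of the 27 summits lay within 1 kb of a gene start as the rule sets it. The gene bounds are rounded to 1 kb, which can shift a distance by 0.5 kb, while distances between peaks are exact. The bodies also differ in length from the RefSeq genes on GRCh38.p14, which are longer by 3.27 kb for MBD3 and 2.06 kb for MBD2, so distances to a start or end of these genes depend on the gene model by up to that much. To show sequence from the start regions, the 250 bases before the transcript start in the RefSeq promoter entry of CHD4, the gene with the most peaks, of MBD2, the gene with none, and of MBD3, the gene with the peak nearest to its start, are given 5′ to 3′ on the strand of the gene (GRCh38.p14, from RefSeq), with CpG dinucleotides in capitals.
CHD4, chr12:6606452-6606701, minus strand: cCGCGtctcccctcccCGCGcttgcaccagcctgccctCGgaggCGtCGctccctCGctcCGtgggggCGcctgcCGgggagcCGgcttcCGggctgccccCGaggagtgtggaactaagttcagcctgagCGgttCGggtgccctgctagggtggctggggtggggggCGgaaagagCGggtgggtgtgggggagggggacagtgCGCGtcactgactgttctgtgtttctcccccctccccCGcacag
MBD2, chr18:54224670-54224919, minus strand: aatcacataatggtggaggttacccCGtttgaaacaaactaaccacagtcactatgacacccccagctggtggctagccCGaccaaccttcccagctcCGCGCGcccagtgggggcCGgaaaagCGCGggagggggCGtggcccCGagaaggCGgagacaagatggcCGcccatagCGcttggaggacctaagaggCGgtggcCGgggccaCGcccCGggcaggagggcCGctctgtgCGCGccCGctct
MBD3, chr19:1592866-1593115, minus strand: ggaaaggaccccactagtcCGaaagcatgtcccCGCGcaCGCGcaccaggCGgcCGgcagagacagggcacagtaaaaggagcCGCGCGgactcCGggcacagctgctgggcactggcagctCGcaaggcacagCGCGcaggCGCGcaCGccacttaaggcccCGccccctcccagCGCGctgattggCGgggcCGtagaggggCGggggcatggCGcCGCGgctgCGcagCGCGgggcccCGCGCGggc

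RefSeq held a promoter entry for 4 of the 5 genes (CHD5 had no entry). The dinucleotide CG reads the same on both strands and occurs in 96.0% of the 35116 entries of 300 bases, with a median of 14 per entry. The entry of MBD3 held 40 CG (77.0% G and C), and 7.61% of all entries held at least as many. The entry of MBD2 held 32 (18.9% of entries held at least as many) and that of CHD4 held 24 (33.9%). Each entry includes 50 bases after the transcript start, which are not printed. The 250 bases printed above held 32 CG for MBD3 and 21 each for MBD2 and CHD4. The entry of CHD3 held 10, below the median (56.4%), and it starts 3.99 kb inside the RefSeq gene, so it is not the start used for the distances here. The entry of CHD4 starts 0.928 kb inside the RefSeq gene, so the bases printed lie within the gene and near its start, not before it. The peaks are on hg19 and these sequences on GRCh38.p14, so the match between them is by gene and not by coordinate, and whether the starts were free of TET1 reads below the peak threshold was not tested.

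The siNC and siCHD5 peaks fell on 4 of the 5 genes, and CHD4 held the largest number in each list. CHD4 had 5 siNC and 8 siCHD5 peaks, CHD3 had 3 and 2, MBD3 had 3 and 2, CHD5 had 1 and 3, and MBD2 had 0 in both. To set these numbers against their surroundings, each chromosome was divided into consecutive windows as long as the gene with its flanks. On chromosome 12, 47.5% of the 78 kb windows held at least 1 siNC peak and 50.9% at least 1 siCHD5 peak. At least 5 siNC peaks, as at CHD4, were found in 1.81% of them, and at least 8 siCHD5 peaks in 0.350%. On chromosome 17, 61.4% of the 68 kb windows held a siNC peak and 65.8% a siCHD5 peak, while 16.8% held 3 or more siNC peaks and 37.5% held 2 or more siCHD5 peaks, as CHD3 did. On chromosome 19, 51.4% of the 56 kb windows held a siNC peak and 55.5% a siCHD5 peak, while 12.1% held 3 or more siNC peaks and 32.3% held 2 or more siCHD5 peaks, as MBD3 did. On chromosome 1, 58.7% of the 118 kb windows held a siNC peak and 63.1% a siCHD5 peak, so that the single siNC peak at CHD5 equals the median window, and 24.2% held 3 or more siCHD5 peaks, as CHD5 did. On chromosome 18, 42% of the 111 kb windows held a siNC peak and 47.6% a siCHD5 peak, so a window without a peak, like that of MBD2, was the more frequent kind in both lists. The windows were not matched for genes or base composition, and these shares are a description. Assembly gaps were not left out, so stretches that cannot hold a peak count as windows without one.

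**Figure D1:**
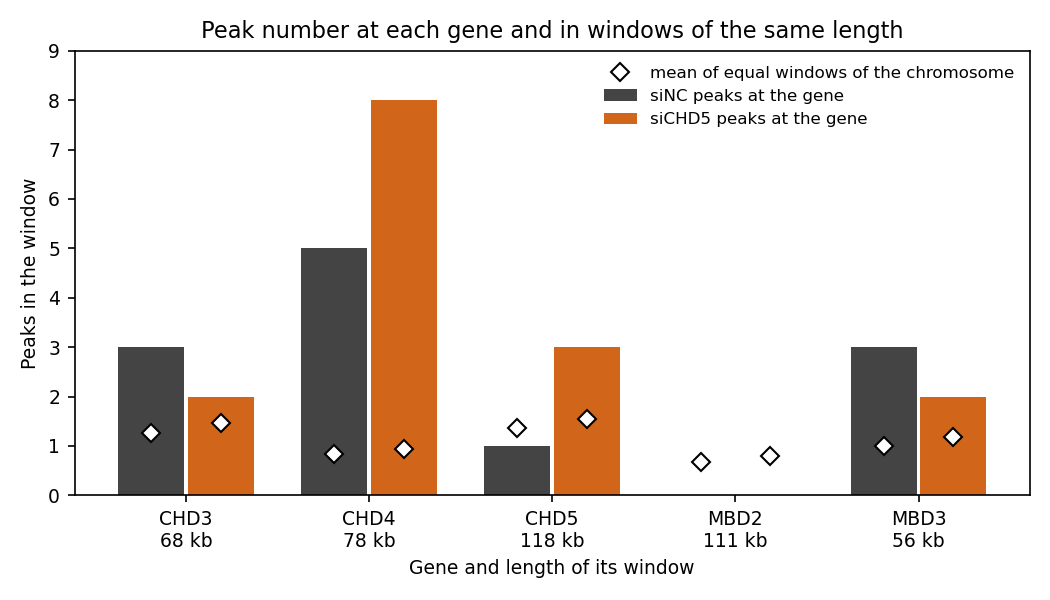
Number of TET1 peaks within 20 kb of each gene (bars, siNC dark and siCHD5 orange) and the mean number in consecutive windows of the same length along the same chromosome (diamonds). CHD4 holds 5 and 8 peaks where the mean window holds 0.837 and 0.946, and MBD2 holds none.

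The peaks at the 5 genes were mostly low in their own lists. Fold enrichment is the authors' value for each summit, the pull-down signal divided by that of the control. In siNC the 12 folds ran from 3.23 to 9.23 with a median of 4.90, against a median of 6.72 over the whole list. In siCHD5 the 15 folds ran from 2.89 to 12.1 with a median of 4.73, against 6.90. Of the siNC peaks 7 of 12 lay at or below the lower quartile of the list (4.96-fold) and 1 at or above the upper quartile (8.99-fold). For siCHD5 these numbers were 8 and 4 of 15, with quartiles of 4.94 and 9.57. From fold and p-value, the pull-down pileup at the summit could be recovered for all 27 peaks. It was 12 to 49 reads in siNC (median 26) and 10 to 62 in siCHD5 (median 19), over control backgrounds of 2.50 to 7.92 and 2.80 to 5.32 reads. The lowest control value recurred on different chromosomes. In siNC 2.50 reads stood at MBD3 and, outside the limit, near CHD3 and MBD2. In siCHD5 2.80 reads stood at CHD4, CHD5 and MBD3. These lowest values are therefore read as a floor of each list and not as local counts. The lowest pileup, 10 reads, belonged to a siCHD5 peak inside CHD4.

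**Figure D2:**
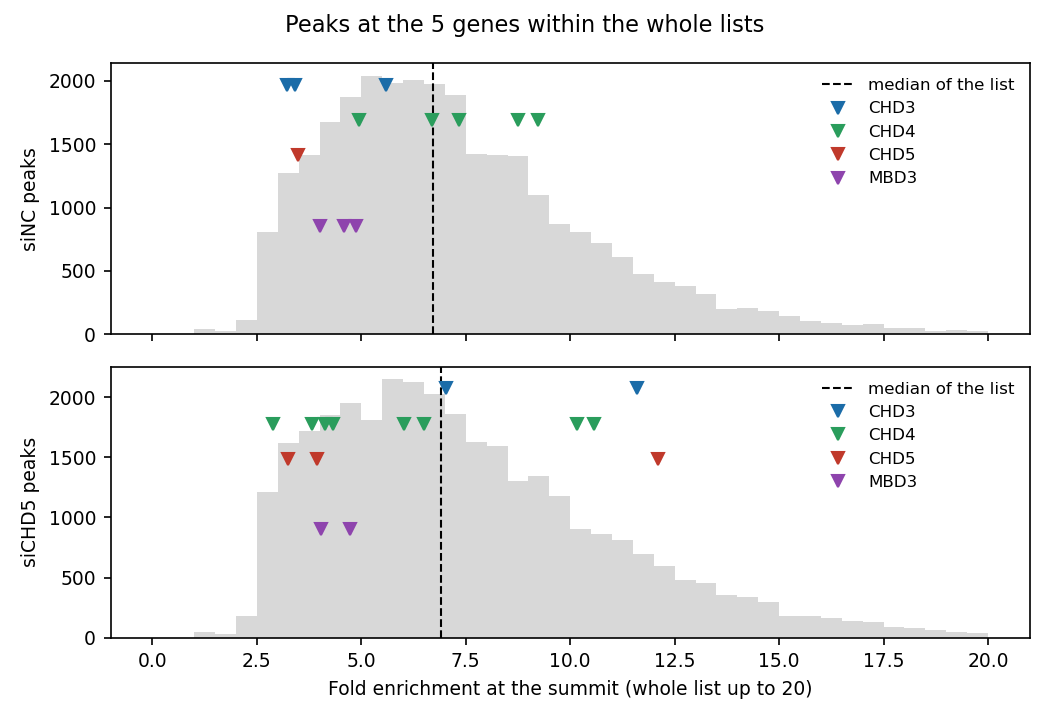
Fold enrichment of all peaks of the siNC list (top) and the siCHD5 list (bottom), in grey up to 20, with the peaks at each gene as coloured triangles and the median of the list as a dashed line. The triangles of MBD3 lie left of both medians, and the 4 siCHD5 triangles furthest right belong to CHD3, CHD4 and CHD5.

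CHD4, the main ATPase of NuRD in most cell types, carried its strongest peaks at and beyond its 3′ end and not at its start. CHD4 is read from the minus strand, so the end of the gene is its lower coordinate. The peak nearest the end lay 0.643 kb inside the gene in siNC, at chromosome 12, 6679513 to 6679797, with 7.34-fold enrichment and 49 reads. siCHD5 had a peak of 10.2-fold and 41 reads there, at 6679491 to 6679857. The fold was thus higher and the pileup lower in siCHD5, while the control background was 5.81 reads in siNC and 3.13 in siCHD5.

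A row of 3 further peaks followed beyond the end of CHD4, and both lists held each of them. The peak 6.20 kb past the end, at 6672602 to 6672959, had the highest siNC fold of all 5 genes: 9.23 in siNC (39 reads) and 10.6 in siCHD5 (52 reads). The peak 11.6 kb past the end, at 6667293 to 6667533, had 8.75-fold enrichment in siNC (36 reads) and 6.49 in siCHD5 (40 reads). The peak 15.6 kb past the end, at 6663257 to 6663566, had 6.70-fold in siNC (34 reads) and 6.01 in siCHD5 (37 reads). These 3 sites stood in both lists, with ratios of siCHD5 to siNC fold of 1.14, 0.741 and 0.898 in that order. In the GRCh38.p14 gene table the next protein-coding genes past the end of CHD4 are NOP2, a ribosomal RNA methyltransferase of the nucleolus, then IFFO1 and GAPDH, the glycolytic enzyme. Which of them the peaks fall in was not analysed here.

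The other CHD4 peaks stood in 1 list each. siNC alone had a peak 10.1 kb before the start, at 6726938 to 6727145 (4.94-fold, 22 reads). siCHD5 alone had a peak 6.56 kb before the start, at 6723450 to 6723816 (4.13-fold, 19 reads), the nearest to the CHD4 start in any list. These 2 upstream peaks are separated by 3121 bp and are not the same site. Within the gene siCHD5 alone had peaks 25.5 kb from the start (4.31-fold, 18 reads) and 34.8 kb from it (2.89-fold, 10 reads), and it had 1 more at 1.38 kb past the end (3.81-fold, 18 reads). All 5 of these peaks were below the median fold of their list.

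**Figure D3:**
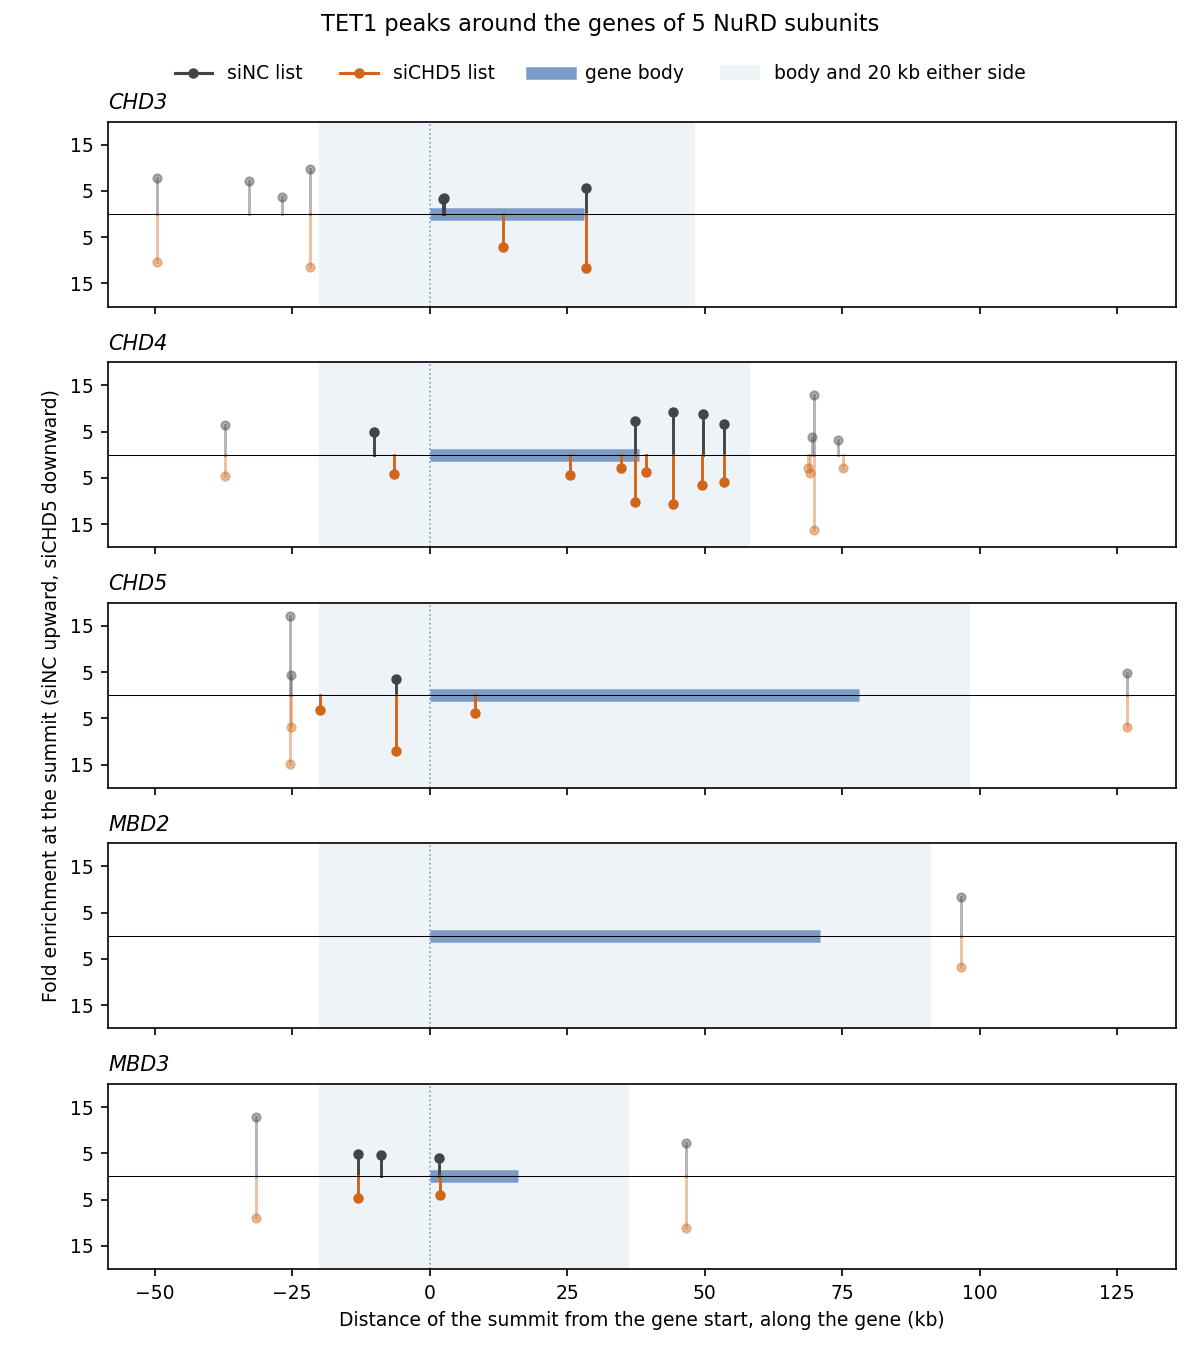
TET1 peak summits by distance from the start of each gene (x axis, kb, drawn 5′ to 3′) and fold enrichment (siNC upward, siCHD5 downward). Shaded areas span the gene body and 20 kb either side, and paler symbols are peaks outside them, shown up to 50 kb. Inside the shaded areas, peaks of both lists stand opposite each other at the end of CHD3, from the end of CHD4 onward and before CHD5 and MBD3. No summit lies within 1 kb of a start.

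CHD3, the paralogue of CHD4, is read from the plus strand and also had its shared peak at its end. It lay 0.425 kb past the end in siNC, at chromosome 17, 7816292 to 7816582, with 5.58-fold enrichment, and 0.432 kb past it in siCHD5, at 7816302 to 7816653, with 11.6-fold. The pileup was 37 reads in siNC and 62 in siCHD5, and the control background was 5.81 and 4.43 reads. CHD3 and CHD4 were thus the 2 genes with a summit within 1 kb of the gene end, in both lists. In the GRCh38.p14 gene table the next protein-coding gene past the end of CHD3 is RNF227, and NAA38, which encodes an auxiliary subunit of an N-terminal acetyltransferase, overlaps CHD3 on the side of its start.

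Inside CHD3 the lists differed. siNC had 2 summits of 1 interval at 7790310 to 7790667, 2.40 and 2.55 kb from the start, with 3.23-fold (13 reads) and 3.42-fold (12 reads). siCHD5 had no peak there, and instead a peak 13.3 kb from the start, at 7801143 to 7801398, with 7.02-fold and 34 reads. Of the siCHD5 peaks without a siNC partner at the 5 genes, this one had the highest fold, and the nearest siNC peak was 10475 bp away. It was the 1 peak of a single list that exceeded the median of its own list.

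CHD5 carried 1 siNC peak and 3 siCHD5 peaks, numbers within the usual range of windows on chromosome 1 (24.2% held 3 or more siCHD5 peaks). The shared peak lay 6.05 kb before the start in siNC, at chromosome 1, 6245905 to 6246134, with 3.47-fold enrichment and 30 reads over a control of 7.92 reads. In siCHD5 it lay at 6245820 to 6246262, with 12.1-fold and 47 reads over a control of 2.97 reads. The fold was 3.48 times as high in siCHD5, with a pileup 1.57 times as high and a control 0.375 times as high. The pull-down pileup, not scaled between the lists, was thus higher and the control lower in siCHD5. Both raise the fold, the control by more. A higher siCHD5 pileup was also found at 78.7% of all shared intervals with both pileups recovered. The siCHD5 control here was near 2.80 reads, the lowest of that list at the 5 genes. What lay behind the difference in pileup or in control was not tested. siCHD5 alone had a peak within the gene, 8.26 kb from the start at 6231608 to 6231822 (3.94-fold, 14 reads), and one 19.98 kb before the start at 6259583 to 6260046 (3.23-fold, 18 reads). RPL22, which encodes a protein of the large ribosomal subunit, is the next gene before CHD5 in the GRCh38.p14 gene table. The body of CHD5, 78 kb long, held no siNC peak.

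MBD3 had the peaks nearest to a gene start, all of low fold. In siNC a peak lay 1.70 kb inside the gene from its start, at chromosome 19, 1591205 to 1591421, with 4.0-fold enrichment and 13 reads. In siCHD5 a peak lay 1.96 kb from the start, at 1590947 to 1591143, with 4.03-fold and 15 reads. These 2 intervals were separated by 61 bp and did not overlap, so by the rule of 1 shared base they count as unshared although they adjoin. Both lists held a peak 13.0 kb before the start, at 1605884 to 1606139 in siNC (4.86-fold, 16 reads) and at 1605837 to 1606206 in siCHD5 (4.73-fold, 17 reads). siNC alone had a peak 8.87 kb before the start at 1601770 to 1601998 (4.57-fold, 15 reads). The genes before MBD3 in the GRCh38.p14 gene table are UQCR11, a subunit of respiratory complex III, and TCF3, which encodes the E-protein transcription factors E12 and E47.

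MBD2 had no peak in any list within 20 kb. The nearest siNC peak lay 25.7 kb past its end, with 8.29-fold enrichment, and siCHD5 had a 6.83-fold peak at the same place. On the other side the first siNC peak was 219.9 kb before the start and the first siCHD5 peak 168.1 kb before it. The start of MBD2 was thus 96.7 kb from the nearest summit in either list, against 1.70 kb for MBD3 in siNC, 2.40 kb for CHD3, 6.05 kb for CHD5 and 10.1 kb for CHD4. In siCHD5 the same distances were 1.96, 13.3, 6.03 and 6.56 kb.

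Over the 5 genes, 7 of the 12 siNC peaks were overlapped by siCHD5 (58.3%, exact Clopper-Pearson 95% interval 27.7 to 84.8, counting error only), against 85.4% of the whole siNC list. Of the 15 siCHD5 peaks 7 were overlapped by siNC (46.7%, 21.3 to 73.4), against 74.5% of the whole siCHD5 list. Both intervals end below the shares of the whole lists. With the 2 CHD3 summits of 1 interval counted once, the siNC share was 63.6% (7 of 11, 30.8 to 89.1). That interval includes 85.4%, although the share of the whole list counts every summit. The intervals assume independent peaks, which peaks at 1 gene are not, so they are a description and not a test. The overlapped siNC peaks had a median of 6.70-fold and the remaining ones of 4.0-fold. In siCHD5 the medians were 10.2 and 3.99. The shares of the whole lists cover peaks of every fold. At the 5 genes, 7 of 12 siNC and 8 of 15 siCHD5 peaks lay in the lowest quartile of fold. The overlapped share among peaks of like fold was not analysed here.

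At the 7 shared sites the summits of the lists lay 3 to 22 bp apart (median 9), against a median of 10 bp over the 23958 shared siNC intervals of the whole list. The fold was higher in siCHD5 at 4 of the 7 sites, where 60.3% of all shared intervals had the higher fold in siCHD5. The ratio of siCHD5 to siNC fold had a median of 1.14, against 1.10 over the whole list (quartiles 0.868 and 1.37). It was 2 or more at 2 sites, those at the end of CHD3 (2.08) and before CHD5 (3.48), a size reached by 3.92% of shared intervals. Among all shared intervals 96.9% had a ratio no higher than that at CHD3 and 99.9% one no higher than that at CHD5. The pileup was higher in siCHD5 at 6 of the 7 sites, the exception being the peak at the CHD4 end. Over the whole lists, 78.7% of the 23955 shared intervals with both pileups recovered had the higher pileup in siCHD5. The pileups were compared as recovered, without scaling between the lists. At 3 sites the fold was lower and the pileup higher in siCHD5. No replicate error exists for these 7 comparisons.

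**Figure D4:**
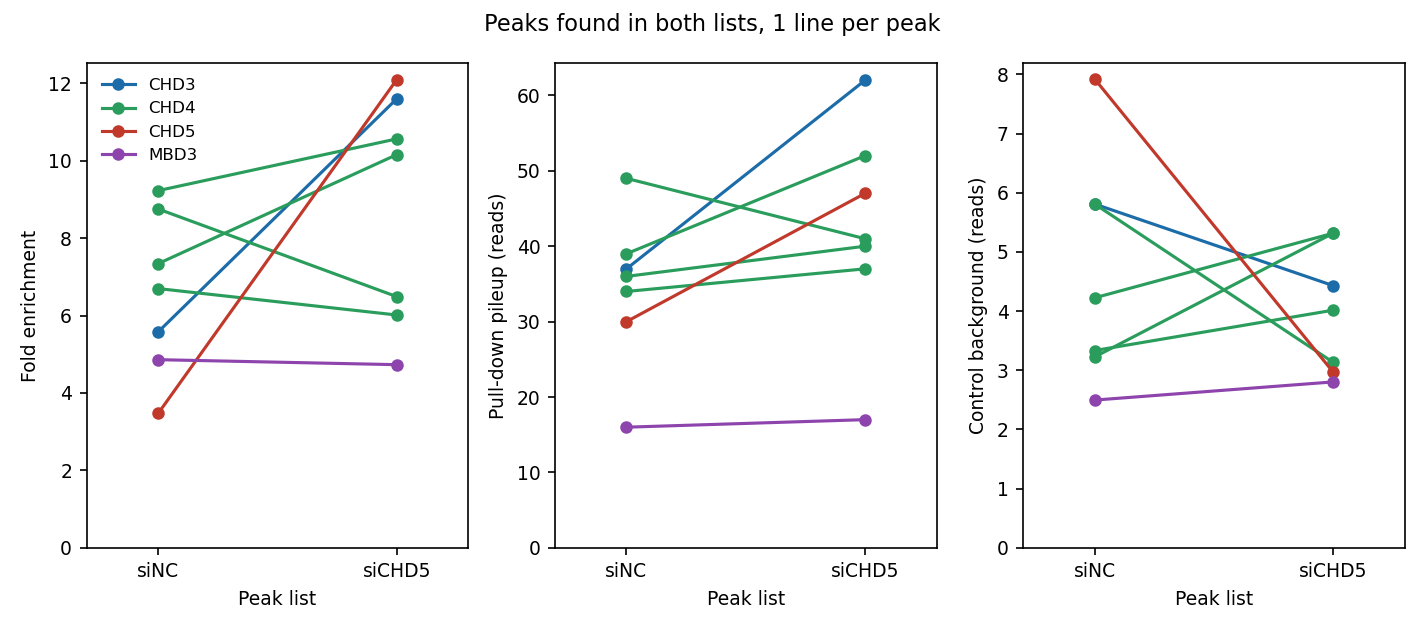
The 7 peaks found in both lists, 1 line per peak coloured by gene, with fold enrichment (left), pull-down pileup in reads (middle) and control background in reads (right). The CHD5 line rises from 3.47-fold to 12.1-fold while its control falls from 7.92 to 2.97 reads, and the CHD3 line rises from 37 to 62 pull-down reads.

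The siCHD3, siCHD4, siMBD2 and siMBD3 lists had no peak within 20 kb of any of the 5 genes, the gene named by the siRNA included. Over the whole siNC list, 0.179% of peaks were overlapped by siCHD3, 0.169% by siCHD4, 0.25% by siMBD2 and 0.176% by siMBD3, and at the 5 genes each of them overlapped 0 of 12. The siNC peaks at the 5 genes make up 0.0422% of their list, and the same share would amount to 0.0464 peaks in siCHD4, 0.0591 in siCHD3, 0.109 in siMBD3 and 0.151 in siMBD2. At that share, lists this short would hold fewer than 1 peak at these genes, so their 0 tells little about these genes. Why the lists are short was not tested. Their median folds were 1.53 in siCHD3, 1.44 in siCHD4, 4.60 in siMBD2 and 4.13 in siMBD3, against 6.72 in siNC. The lowest −log10 p was 6.31 in siCHD4, 5.88 in siCHD3, 5.65 in siMBD3 and 5.52 in siMBD2, and 10 of the 12 siNC peaks were at or above each of these values in their own list, as were 92.7% to 94.8% of all siNC peaks. The 2 below were the summits of 1 interval inside CHD3.

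The nearest peaks of the short lists were far away. siMBD2 had a 4.01-fold peak 296.3 kb from CHD4, at chromosome 12, 6382515 to 6382705, and every other distance from a short list to 1 of the 5 gene bodies was at least 5.48 Mb. For the gene that the siRNA names, the distance was 14.4 Mb for CHD3 in siCHD3, 51.6 Mb for CHD4 in siCHD4, 33.2 Mb for MBD2 in siMBD2 and 5.92 Mb for MBD3 in siMBD3. A site at the own gene of the siRNA was thus found for siCHD5 alone, the list that is about as long as siNC.

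The limit of 20 kb left out several strong peaks. Just inside it stood the siCHD5 peak 19.98 kb before CHD5, with 3.23-fold enrichment. Just outside stood a peak 21.8 kb before CHD3 (9.76-fold in siNC and 11.5-fold in siCHD5) and a peak 25.4 kb before CHD5 (17.1-fold and 14.8-fold). So did the peak past MBD2 (8.29-fold and 6.83-fold), which in siCHD5 was below the list median of 6.90. The peak before CHD5 exceeded every peak inside the limit. Further strong peaks were one 31.6 kb before MBD3 (13.0-fold and 8.87-fold) and one 31.8 kb past CHD4 (12.8-fold and 16.3-fold).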

How the data were processed

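TET1 ChIP-seq was carried out on 36 HEK293T libraries, 18 pull-down and 18 input. The submitters' processing notes list MACS2 2.1.2, Bowtie2 2.3.4, deepTools 3.5.0, bedtools 2.25.0, SAMtools 1.9, FastQC 0.11.7 and the build hg19 without saying what each was used for. Their settings and the handling of duplicate reads, after 18 cycles of PCR per the labels' protocols, are not given in the sources used here, and the deposited lists say nothing of them. The authors deposited 6 peak lists, 1 per siRNA, each with fold enrichment (a ratio), −log10 p and −log10 q at the summit, a score of 10 times −log10 q, and the summit position. Read totals were not analysed here.

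Peaks were assigned to genes by interval, and lists were compared at 1 shared base, with Python 3.11.15, numpy 2.4.6 and scipy 1.17.1. Distances run from the summit to gene bounds given to the nearest kb. Pileup and control were recovered from fold (pseudocount 1 in both) and −log10 p, within 0.02. The overlap and recovery steps were tested on simulated data. The members and lists were chosen with earlier results of these data known. The naming rule took the peaks nearest each start and those of highest fold, and the remaining peaks were few enough to be given as well. Other NuRD genes were not used here because the gene table is of another build. Strands came from RefSeq, and that of CHD5 from general knowledge.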

Additional observations from a re-analysis of the deposited data

How the results depend on the processing

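No paired analysis was possible because each siRNA has 1 pooled peak list. Leaving out a replicate was not possible for the same reason. Placing peaks by summit left the numbers unchanged. Asking for an overlap of 50% of both peaks, or for the siCHD5 summit inside the siNC peak, left the overlapped share at 58.3%. Counting distinct intervals gave 11 siNC and 15 siCHD5 peaks and a median siNC fold of 4.94. The overlapped share was then 63.6% (30.8 to 89.1), an interval that includes the 85.4% of the whole siNC list. Restricted to gene bodies, 4 siNC and 6 siCHD5 peaks remained and the overlapped share was 25% (1 of 4). With flanks of 50 kb there were 26 siNC and 28 siCHD5 peaks, with an overlapped share of 69.2% (18 of 26). At a −log10 q of 10 or more, 5 siNC and 7 siCHD5 peaks were left, the overlapped share was 100% (5 of 5) and the median siNC fold was 7.34. The share and median of the whole siNC list at that cut were not analysed here. The values of the whole list given above are for the list without the cut and are not comparable. The short lists held 0 peaks under the 5 of these settings that apply to them. Most peaks of a single list rest on 10 to 19 reads, and whether depth bears on their absence from the other list was not tested.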
